A study of Mus musculus with 24 samples.

Results

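The subject is a set of 36 genes that the kidney's proximal tubule uses to move organic solutes and to take up filtered protein. With earlier results of these data known, they were chosen by name from 17736 genes measured in whole mouse kidney. They comprise 3 organic cation and zwitterion carriers, 8 organic anion and urate carriers, 10 amino acid carriers, 1 peptide carrier, 4 dicarboxylate and sulfate carriers, 2 vitamin and nucleoside carriers, 4 ATP-driven (ABC) pumps and 4 endocytic receptors and adaptors. Kidney RNA came from 24 male Crl:CD1(ICR) mice, an outbred stock, with 1 single-colour Agilent array per mouse. The DKD+enarodustat group (n = 9, called enarodustat kidneys) was given 90 mg/kg of intravenous alloxan 3 days before grouping and then feed with 0.01% enarodustat by weight. The DKD group (n = 9, for diabetic kidney disease) was given the same alloxan and feed without the drug. The Sham group (n = 6) was given vehicle in place of alloxan and feed without the drug. All kidneys were taken 16 days after grouping, and the sources used here do not give the age of the mice. Alloxan is a toxin of insulin-producing cells, and enarodustat blocks prolyl hydroxylases, the enzymes that lead to destruction of hypoxia-inducible factor (HIF). The diabetic groups were matched on blood glucose and body weight, and the design holds no mice with alloxan but without diabetes and none with enarodustat alone.

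Proximal tubule cells take organic anions and cations from the blood at their basolateral side and release them into the forming urine at their luminal brush border. The same cells reclaim filtered amino acids, peptides, citrate, sulfate, vitamins and nucleosides, and they retrieve filtered proteins with the receptors megalin and cubilin. Basolateral uptake by the organic anion transporters Slc22a6 and Slc22a8 is an exchange against dicarboxylates, which Slc13a3 brings into the cell.

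Levels below are log2 of the background-subtracted spot signal, set relative to the 75th percentile of its array, so a level of 0 is the signal at that percentile. Differences are log2 differences ± SE from a limma fit of all 24 arrays, with p-values adjusted by Benjamini-Hochberg over 17736 genes and a threshold of 0.05. All 36 genes were well above background on all 24 arrays, no non-control spot was saturated (0), and array totals of spots well above background lay between 37716 and 44732. All 20 proximal tubule markers outside the set were also well above background on every array. Their summed level, in multiples of the 75th percentile signal, was 1960 to 2850 in enarodustat kidneys, 2090 to 2970 in DKD kidneys and 2690 to 3250 in Sham kidneys. Of these markers, 3 rose and 3 fell in DKD against Sham kidneys (median difference -0.09), where 11.6% of all genes passed. In enarodustat against Sham kidneys 3 rose and 6 fell (median -0.27), where 15.5% of all genes passed. Since whole kidney was measured, fewer proximal tubule cells and less RNA per cell cannot be told apart.

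RefSeq promoter windows of assembly GRCm38.p6, which run 250 bases before to 50 bases after a transcript start, matched 30 of the 36 genes. Those of 6 genes are printed because the results below turn on them: Slc22a6, Slc22a8, Slc22a2 and Slc17a3 carry organic ions, Slc3a2 is the shared chain of basolateral amino acid carriers, and Abcc4 is a luminal pump. Capitals mark the motifs GTTAAT, bound by HNF1, and ACGTG, the core of the hypoxia response element, on either strand (read as ATTAAC and CACGT on the other), where they occur. CACGTG holds ACGTG on both strands at overlapping places and was counted on each.
Slc22a6, chr19:8617746-8618045, + strand: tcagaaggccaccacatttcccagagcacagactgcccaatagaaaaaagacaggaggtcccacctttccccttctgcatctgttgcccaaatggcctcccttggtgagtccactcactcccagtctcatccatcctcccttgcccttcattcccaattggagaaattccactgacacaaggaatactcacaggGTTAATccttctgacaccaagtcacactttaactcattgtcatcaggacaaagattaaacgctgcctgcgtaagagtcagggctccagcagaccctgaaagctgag
Slc22a8, chr19:8592932-8593231, + strand: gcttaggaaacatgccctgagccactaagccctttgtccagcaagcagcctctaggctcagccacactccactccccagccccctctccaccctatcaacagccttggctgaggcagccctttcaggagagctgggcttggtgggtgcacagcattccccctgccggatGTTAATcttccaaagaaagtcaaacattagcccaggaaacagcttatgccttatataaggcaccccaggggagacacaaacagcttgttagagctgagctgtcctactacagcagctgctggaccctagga
Slc22a2, chr17:12583939-12584238, + strand: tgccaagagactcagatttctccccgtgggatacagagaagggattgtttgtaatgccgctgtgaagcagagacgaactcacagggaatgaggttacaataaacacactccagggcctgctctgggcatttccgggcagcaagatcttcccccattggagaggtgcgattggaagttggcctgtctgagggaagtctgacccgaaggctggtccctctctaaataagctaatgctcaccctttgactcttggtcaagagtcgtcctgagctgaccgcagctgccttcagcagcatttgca
Slc17a3, chr13:23839184-23839483, + strand: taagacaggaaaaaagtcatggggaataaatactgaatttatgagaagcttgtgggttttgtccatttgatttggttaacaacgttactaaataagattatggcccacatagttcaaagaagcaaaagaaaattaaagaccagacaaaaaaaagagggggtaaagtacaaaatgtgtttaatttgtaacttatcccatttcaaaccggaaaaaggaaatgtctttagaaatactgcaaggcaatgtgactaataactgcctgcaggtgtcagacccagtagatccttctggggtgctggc
Slc3a2, chr19:8713848-8714147, - strand: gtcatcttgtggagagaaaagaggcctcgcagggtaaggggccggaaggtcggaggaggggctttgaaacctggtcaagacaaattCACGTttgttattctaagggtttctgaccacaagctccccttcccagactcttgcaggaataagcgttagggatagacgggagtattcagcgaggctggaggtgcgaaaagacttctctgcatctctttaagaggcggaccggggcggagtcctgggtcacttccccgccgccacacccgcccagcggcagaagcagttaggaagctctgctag
Abcc4, chr14:118706170-118706469, - strand: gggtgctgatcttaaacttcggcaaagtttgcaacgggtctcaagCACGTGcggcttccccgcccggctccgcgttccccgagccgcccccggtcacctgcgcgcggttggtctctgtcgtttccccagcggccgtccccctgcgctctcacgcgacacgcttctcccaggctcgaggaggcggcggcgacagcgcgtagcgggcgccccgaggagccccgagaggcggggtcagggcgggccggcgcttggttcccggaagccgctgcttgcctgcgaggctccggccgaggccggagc

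GTTAAT lay 56 bases before the start in Slc22a6 and 81 bases before it in Slc22a8. Of the 30 genes, 5 held this motif (Dab2, Slc22a6, Slc22a8, Slc3a1 and Slc7a7), against 8.24% of 27025 genes with a window. ACGTG was in 9 of the 30 genes, against 21.8% of all genes. Matches lay 164 bases before the start in Slc3a2 and 205 and 204 bases before it in the printed Abcc4 window. Another Abcc4 window, chr14:118676882-118677181, is not printed and held no ACGTG. The HNF4 motif CAAAGTCCA was found in Slc3a1 alone among the 30, 39 bases before its start, against 0.555% of all genes. A gene was counted if any of its windows held the motif. The 30 genes had 41 windows and the 27025 genes had 32851, so these shares rest on unlike numbers of windows per gene. The matches are letters in a window and say nothing of binding.

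In DKD kidneys 7 of the 11 carriers for organic ions were lower than in Sham kidneys and 4 did not pass, and 5 of the 6 amino acid carriers that changed were higher. Of the 36 genes, 16 passed the threshold between DKD and Sham, 7 higher and 9 lower, where 11.6% of all genes passed (5.47% higher and 6.13% lower). Since the set was chosen with earlier results of these data known, its share beside that of all genes is no independent support. The 16 changes had sizes between 1.30-fold, for Slc13a3, and 3.66-fold, for Slc22a7. The median difference over the 36 genes was -0.12, and that over all genes was -0.01; the median size regardless of sign was 0.32 for the set and 0.17 for all genes. By class, 7 of the 9 lower genes were organic ion carriers and 5 of the 7 higher genes were amino acid carriers. The groups did not overlap for 5 lower genes (Slc22a2, Slc47a1, Slc22a6, Slc17a3 and Slc7a13) and 3 higher ones (Slc3a2, Slc13a2 and Abcc4), where 1.92% of all genes lay wholly below Sham and 1.48% wholly above. All 16 kept their sign within each of the 3 slides, which held 3 enarodustat, 3 DKD and 2 Sham arrays each. The slides hold the same arrays that gave the calls, so the kept signs are no separate check.

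Organic cations enter from the blood through Slc22a2 and leave into the urine in exchange for protons through Slc47a1, and both genes fell in DKD kidneys. Slc22a2 levels lay between 4.65 and 5.30 (median 4.84) in enarodustat kidneys, between 4.29 and 5.07 (median 4.80) in DKD kidneys and between 5.35 and 5.63 (median 5.51) in Sham kidneys. No diabetic kidney of either group reached the lowest Sham value. The difference of DKD from Sham was -0.74 ± 0.11 (adjusted p = 0.000148, limma), which is 1.67-fold lower. For Slc47a1, levels were 5.94 to 6.32 (median 6.12) in enarodustat kidneys, 5.61 to 6.42 (median 6.06) in DKD kidneys and 6.45 to 6.64 (median 6.57) in Sham kidneys. Here too every diabetic kidney lay below every Sham kidney, though DKD 4, the highest DKD array, came close to the Sham range. The DKD difference was -0.54 ± 0.09 (adjusted p = 0.000547, limma), or 1.45-fold lower. Slc22a4, a luminal carrier of zwitterions such as ergothioneine and carnitine, differed by 0.04 ± 0.11 (adjusted p = 0.858, limma) and its groups overlapped.

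Of the 8 organic anion and urate carriers, 5 fell and none rose in DKD kidneys (median difference -0.62). Slc22a6, the main basolateral uptake route for organic anions, had levels of 6.58 to 7.10 (median 6.89) in enarodustat kidneys, 6.28 to 7.20 (median 6.85) in DKD kidneys and 7.35 to 7.80 (median 7.56) in Sham kidneys. The Sham kidneys stood above all 18 diabetic ones. Its DKD difference was -0.75 ± 0.12 (adjusted p = 0.000305, limma), 1.68-fold lower. Slc22a8, the other basolateral organic anion exchanger and the gene next to Slc22a6 on chromosome 19, had levels of 1.20 to 3.28 (median 2.54) in enarodustat kidneys, 2.09 to 3.45 (median 2.70) in DKD kidneys and 2.64 to 3.76 (median 3.21) in Sham kidneys. Its groups overlapped, with 3 of 9 DKD kidneys below the lowest Sham kidney, and the difference of -0.47 ± 0.25 did not pass (adjusted p = 0.255, limma; 95% interval -0.98 to 0.05).

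Slc22a7, a carrier of organic anions and of cyclic GMP, had the largest difference of the set. Its levels lay between 4.33 and 6.97 (median 5.36) in enarodustat kidneys, between 2.87 and 6.08 (median 4.13) in DKD kidneys and between 5.98 and 6.77 (median 6.33) in Sham kidneys. All but 1 of the 9 DKD kidneys were below the lowest Sham kidney, and the spread among DKD kidneys (SD 1.03) was wide beside that of Sham kidneys (SD 0.32). Slc22a7 fell by 1.87 ± 0.43 on the log2 scale (adjusted p = 0.00578, limma), 3.66-fold. Within the 3 slides its DKD difference was -2.52, -0.84 and -2.26, and without DKD 2, the lowest array, it was -1.67 (adjusted p = 0.0105).

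The remaining anion carriers include luminal ones that handle urate. Slc17a3, which lets organic anions out into the lumen, had levels of 5.59 to 6.23 (median 5.79) in enarodustat kidneys, 4.91 to 6.25 (median 5.55) in DKD kidneys and 6.38 to 6.77 (median 6.53) in Sham kidneys. Its groups were apart, and the DKD difference was -0.91 ± 0.16 (adjusted p = 0.000492, limma). Its neighbour on chromosome 13, Slc17a1, a luminal carrier of the same family, had levels of 2.67 to 3.57 (median 2.96) in enarodustat kidneys, 2.25 to 3.20 (median 2.84) in DKD kidneys and 3.12 to 3.59 (median 3.33) in Sham kidneys. All but 1 of 9 DKD kidneys were below the lowest Sham kidney, and the difference was -0.61 ± 0.16 (adjusted p = 0.0144, limma).

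Slc22a12, the luminal exchanger that reclaims urate, had levels of 4.08 to 4.79 (median 4.41) in enarodustat kidneys, 3.77 to 4.87 (median 4.31) in DKD kidneys and 4.38 to 5.33 (median 4.90) in Sham kidneys. Its groups overlapped, with all 9 DKD kidneys below the Sham mean, and it fell by 0.62 ± 0.16 (adjusted p = 0.0148, limma). Without Sham 3, the highest Sham kidney, the adjusted p of Slc22a12 was 0.0516 for a difference of -0.53. Slc22a13, a carrier of urate and nicotinate, differed by -0.07 ± 0.18 (adjusted p = 0.874), and Slco4c1, a basolateral carrier of organic anions, by -0.03 ± 0.58 (adjusted p = 0.986, both limma). The Slco4c1 probe was dim (level -2.98 ± 1.14 in Sham kidneys, SD, n = 6), so differences of more than 1.00 either way lay inside its 95% interval of -1.22 to 1.17.

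**Figure D1:**
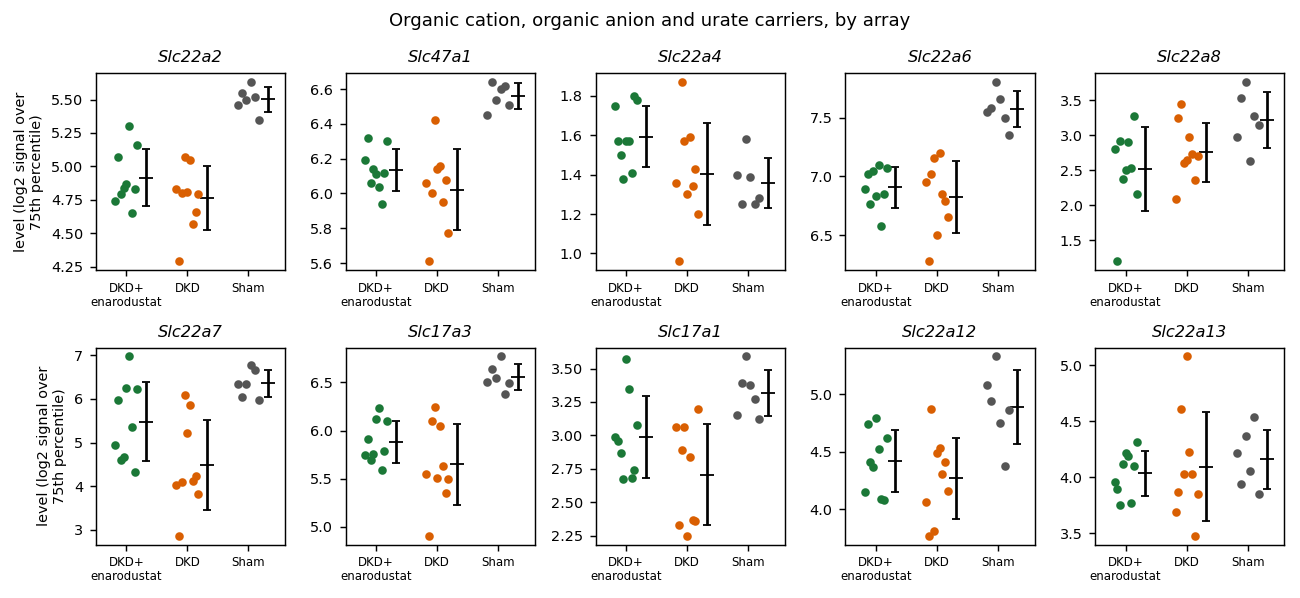
Levels of 10 organic ion carriers on each array (log2 signal over the 75th percentile of the array), 1 panel per gene with its own axis, with DKD+enarodustat (n = 9), DKD (n = 9) and Sham (n = 6) from left to right; bars give mean ± SD. The Sham kidneys stand above all diabetic kidneys for Slc22a2, Slc47a1, Slc22a6 and Slc17a3, while Slc22a4, Slc22a8 and Slc22a13 overlap.

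Amino acid carriers changed in both directions in DKD kidneys: 5 of 10 rose, 1 fell and 4 did not pass (median difference 0.38). The 3 genes of the basolateral exit carriers rose, Slc3a2 at its brighter probe. Slc3a2, the heavy chain that brings its light chains to the membrane, had levels of 5.14 to 5.52 (median 5.37) in enarodustat kidneys, 5.26 to 5.75 (median 5.39) in DKD kidneys and 4.73 to 4.99 (median 4.87) in Sham kidneys. Every diabetic kidney lay above every Sham kidney, and the DKD difference was 0.59 ± 0.08 (adjusted p = 9.35e-05, limma), 1.51-fold. Slc7a8, a light chain for neutral amino acids, had levels of 2.33 to 3.54 (median 2.99) in enarodustat kidneys, 2.41 to 3.47 (median 3.20) in DKD kidneys and 2.01 to 2.55 (median 2.38) in Sham kidneys. All but 1 of 9 DKD kidneys were above the highest Sham kidney, and the difference was 0.80 ± 0.17 (adjusted p = 0.0025, limma). Slc7a7, the light chain that exports cationic amino acids, rose by 0.40 ± 0.10 (adjusted p = 0.00866, limma), with 7 of 9 DKD kidneys above the highest Sham kidney.

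The luminal carriers of neutral amino acids Slc6a18 and Slc6a19 are neighbours on chromosome 13. Slc6a18 levels lay between 3.14 and 3.77 (median 3.56) in enarodustat kidneys, between 2.70 and 3.37 (median 3.18) in DKD kidneys and between 2.24 and 3.07 (median 2.48) in Sham kidneys. The enarodustat kidneys were all above the Sham kidneys, and DKD kidneys lay between them with overlap on both sides. The DKD difference from Sham was 0.55 ± 0.13 (adjusted p = 0.00571, limma). Slc6a19 rose by 0.43 ± 0.14 (adjusted p = 0.0451, limma). That call was lost in 21 of 38 alternative analyses, 16 of them among those leaving out each array in turn (limma adjusted p of 0.0501 to 0.1 there). In Slc6a19 the kidneys DKD 1, DKD 5 and DKD 6 were within the Sham range and the other 6 above it.

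The luminal heteromer of Slc3a1 and Slc7a9, which takes up cystine and cationic amino acids, did not pass. Slc7a9, the light chain, differed by 0.36 ± 0.12 (adjusted p = 0.0567, limma). It passed in 9 of 38 alternatives, among them the 4 other scalings (0.41 to 0.45, limma adjusted p of 0.0057 to 0.0142). Of these scalings, the authors' deposited values nearly repeat background correction by normexp with quantile normalization. The heavy chain, Slc3a1, differed by -0.13 ± 0.10 (adjusted p = 0.478, limma). Slc7a13, which also pairs with Slc3a1 and marks the straight segment of the proximal tubule in mice, fell instead. Its levels were 4.16 to 4.86 (median 4.64) in enarodustat kidneys, 3.32 to 4.71 (median 4.32) in DKD kidneys and 4.73 to 5.41 (median 5.10) in Sham kidneys. No DKD kidney reached the lowest Sham kidney, and the DKD difference was -0.82 ± 0.17 (adjusted p = 0.00263, limma), 1.76-fold lower. Of the 6 other straight segment markers listed, 1 rose (Slc5a1, a sodium-glucose carrier, 0.62 ± 0.15) and 1 fell (Acsm3, a mitochondrial acyl-CoA synthetase, -1.23 ± 0.26). The imino acid carrier Slc6a20b differed by -0.15 ± 0.09 and the acidic amino acid carrier Slc1a1 by -0.11 ± 0.09, neither past the threshold.

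**Figure D2:**
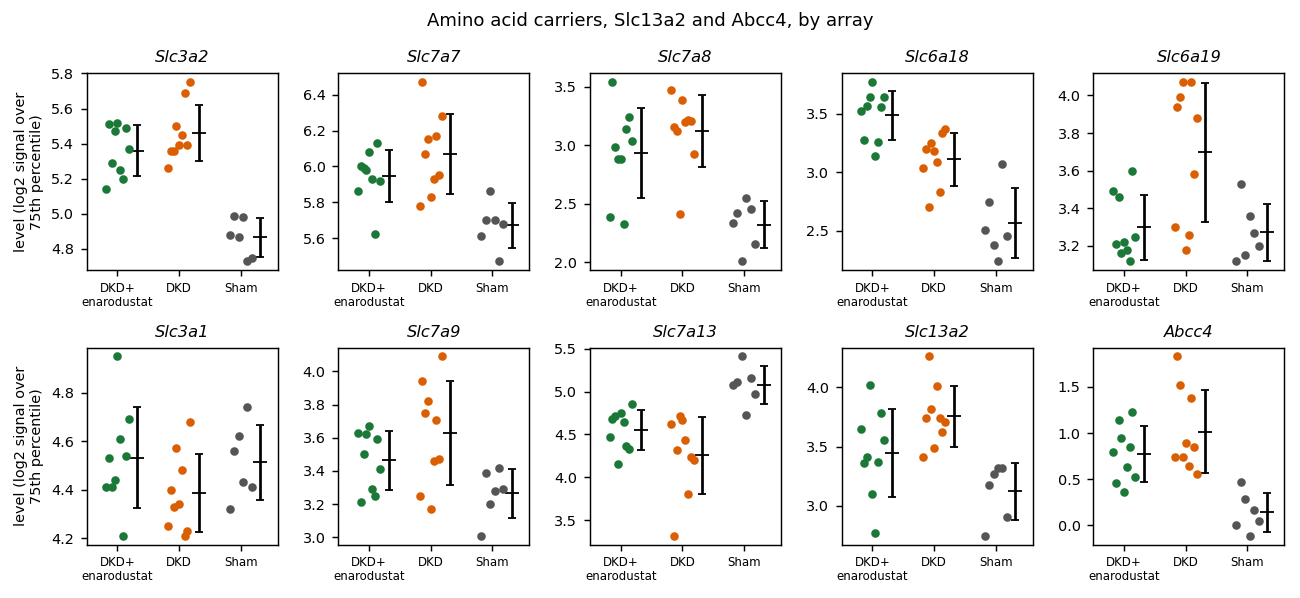
Levels of 8 amino acid carriers, the citrate carrier Slc13a2 and the pump Abcc4 on each array (log2 signal over the 75th percentile of the array), drawn as for the organic ion carriers with bars for mean ± SD. Slc3a2, Slc13a2 and Abcc4 are above the Sham range in all 9 DKD kidneys, and Slc7a13 is below it in all 9.

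A second, dimmer probe of 3 of these genes gave a smaller or an opposite difference. For Slc3a2 the dimmer probe, which the array assigns to another transcript record, had levels of 1.46 to 2.86 in enarodustat kidneys, 1.38 to 2.92 in DKD kidneys and 2.35 to 3.46 in Sham kidneys, a difference of -0.48 for DKD from Sham. The dimmer Slc6a18 probe, of the same record as the brighter one, differed by -0.17. The dimmer Slc17a3 probe, assigned to another record, differed by -0.22. Its mean level over all arrays was -2.66, against 5.96 at the brighter probe, so their average joins probes of very unlike brightness. With all probes of a gene averaged, the DKD differences were 0.06 for Slc3a2 (adjusted p = 0.866), 0.19 for Slc6a18 (adjusted p = 0.336) and -0.56 for Slc17a3 (adjusted p = 0.102, all limma). In DKD against Sham kidneys the calls of these 3 genes thus rest on the brighter probe. Slc6a20b, which did not pass at its brighter probe, differed by -0.32 at the dimmer one, of the same record. Its probes averaged passed as lower, by -0.24 in DKD against Sham (adjusted p = 0.0248) and by -0.24 in enarodustat against Sham kidneys (adjusted p = 0.0198, both limma). Both probes of Slc7a8 were higher in DKD kidneys, by 0.80 and 0.76.

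**Figure D3:**
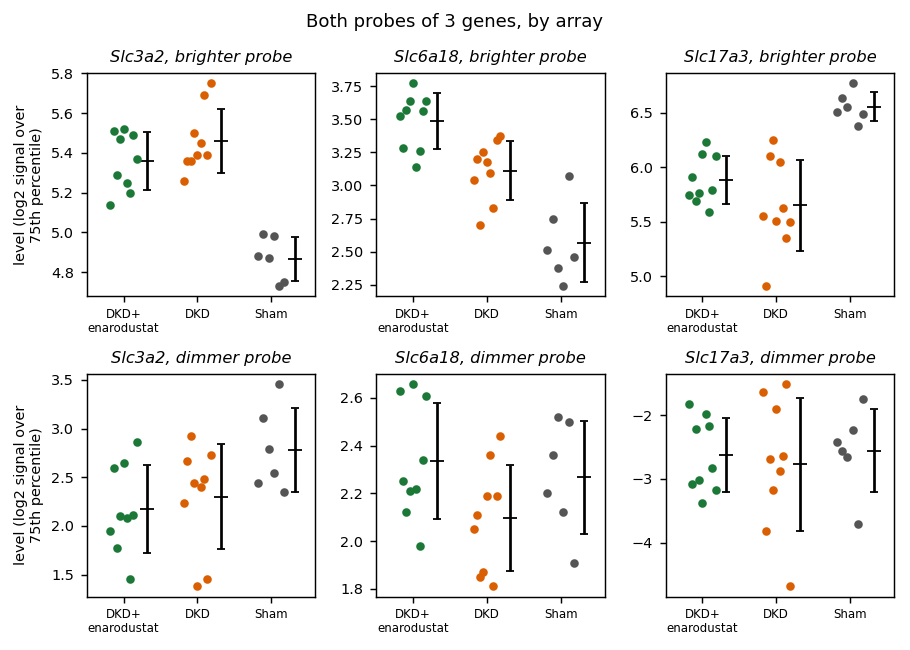
Levels at both probes of Slc3a2, Slc6a18 and Slc17a3 on each array (log2 signal over the 75th percentile), brighter probe in the top row and dimmer probe in the bottom row, with DKD+enarodustat, DKD and Sham from left to right and bars for mean ± SD. The Slc3a2 groups are apart at the brighter probe, with DKD higher by 0.59, and overlap at the dimmer one, with DKD lower by 0.48.

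Among dicarboxylate and sulfate carriers, the luminal and basolateral dicarboxylate genes changed in opposite directions. Slc13a2, which reclaims citrate at the brush border, had levels of 2.77 to 4.02 (median 3.41) in enarodustat kidneys, 3.41 to 4.26 (median 3.74) in DKD kidneys and 2.75 to 3.32 (median 3.23) in Sham kidneys. All DKD kidneys were above all Sham kidneys, and the difference was 0.63 ± 0.16 (adjusted p = 0.00941, limma). The basolateral carrier Slc13a3 fell by 0.38 ± 0.12 (adjusted p = 0.0455, limma), with 8 of 9 DKD kidneys below the lowest Sham kidney. Slc13a3 lost its call in 24 of 38 alternatives, 16 of them among those leaving out each array in turn (limma adjusted p of 0.0501 to 0.12 there). The luminal sulfate carrier Slc13a1 differed by 0.24 ± 0.21 (adjusted p = 0.532) and the basolateral sulfate exchanger Slc26a1 by -0.27 ± 0.11 (adjusted p = 0.125, both limma).

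One of the 4 ABC pumps rose in DKD kidneys. Abcc4, which pumps organic anions and cyclic nucleotides into the lumen, had levels of 0.36 to 1.23 (median 0.80) in enarodustat kidneys, 0.56 to 1.83 (median 0.85) in DKD kidneys and -0.11 to 0.47 (median 0.11) in Sham kidneys. All DKD kidneys were above all Sham kidneys and 7 of 9 enarodustat kidneys were. The DKD difference was 0.87 ± 0.18 (adjusted p = 0.00241, limma), 1.83-fold. The other luminal pumps, Abcc2, Abcb1a and Abcg2, differed by -0.20, -0.18 and -0.20, and none passed.

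The endocytic genes held no call in DKD against Sham kidneys (0 of 4, limma, and 0 of 4 at an unadjusted p under 0.05). Of all genes 11.6% passed and 24.8% had an unadjusted p under 0.05, so 0 of 4 does not set these genes apart. Lrp2, which encodes megalin, had levels of 5.98 to 6.64 (median 6.44) in enarodustat kidneys, 5.64 to 6.82 (median 6.56) in DKD kidneys and 6.03 to 6.75 (median 6.63) in Sham kidneys. The groups overlapped, and the DKD difference was -0.08 ± 0.16 (adjusted p = 0.825, limma) with a 95% interval of -0.40 to 0.25. Cubn, which encodes cubilin, had levels of 4.66 to 5.53 (median 5.27) in enarodustat kidneys, 4.77 to 5.91 (median 5.61) in DKD kidneys and 4.99 to 5.53 (median 5.42) in Sham kidneys. Of the 9 DKD kidneys, 5 were above the highest Sham kidney and 1 below the lowest, and the difference of 0.15 ± 0.16 did not pass (adjusted p = 0.627, limma; 95% interval -0.18 to 0.48). Amn, the membrane partner of cubilin, differed by -0.14 ± 0.09 and Dab2, the adaptor that links megalin to clathrin, by -0.09 ± 0.09. The peptide carrier Slc15a2 (-0.20), the vitamin C carrier Slc23a1 (0.09) and the nucleoside carrier Slc28a1 (0.10) did not pass either.

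**Figure D4:**
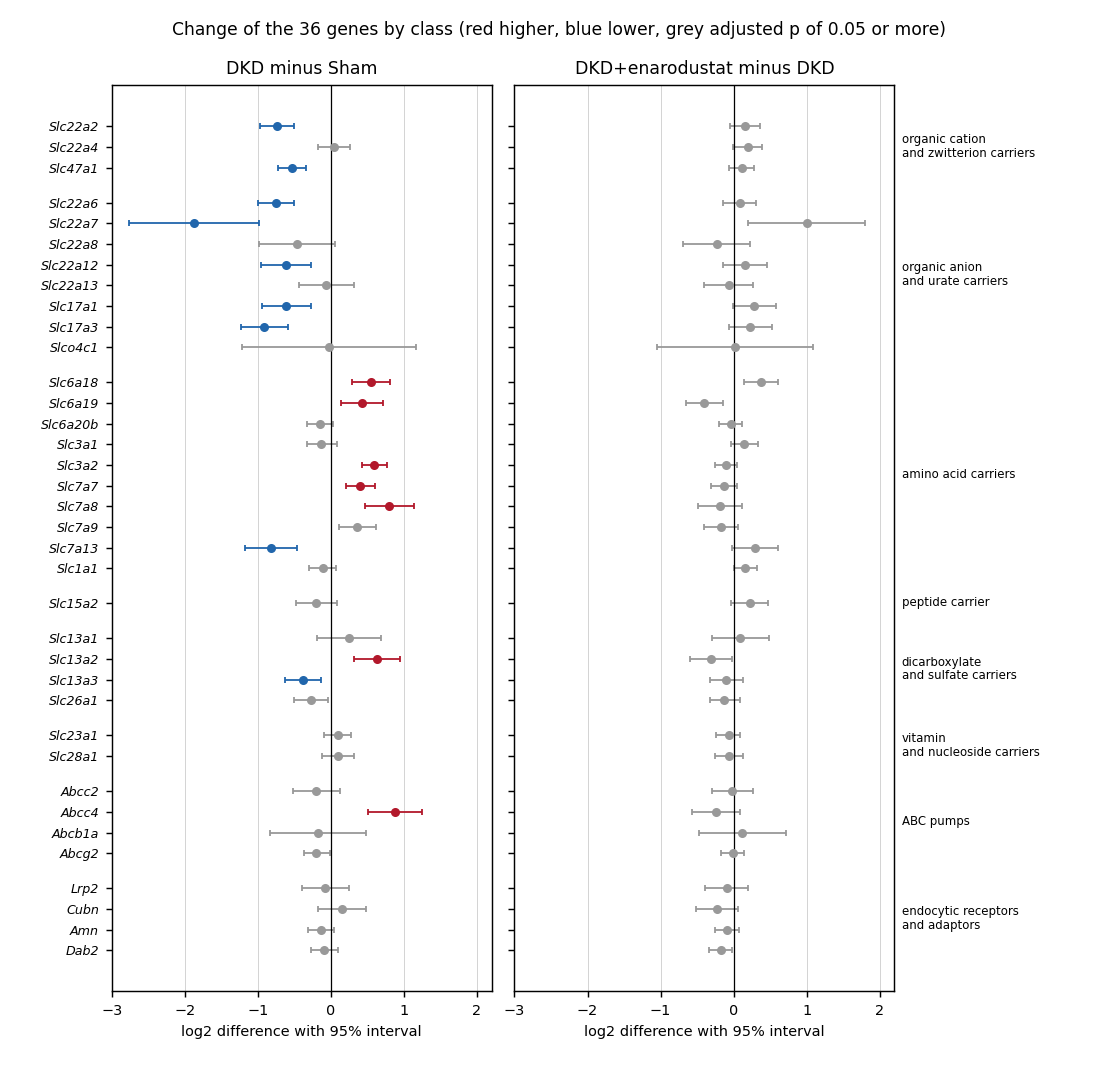
Differences of all 36 genes in log2 units with 95% intervals, by class, for DKD minus Sham on the left and DKD+enarodustat minus DKD on the right; red marks genes that passed as higher, blue as lower and grey those that did not pass. On the left, organic ion carriers lie left of 0 or at it and the endocytic genes near 0, with 16 genes coloured; on the right all 36 are grey.

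Enarodustat in feed was compared with DKD kidneys to see what the drug changed in diabetic mice. None of the 36 genes passed between enarodustat and DKD kidneys (0 by limma and 0 in each of 38 alternative analyses), where 0.716% of all genes passed (0.609% higher and 0.107% lower). None lay wholly above or wholly below DKD (0 of 36), where 0.135% and 0.0113% of all genes did. At an unadjusted p under 0.05 there were 5 (Slc22a7, Slc6a18, Slc6a19, Slc13a2 and Dab2), and 10.9% of all genes did so. The median difference was -0.03 over the set and 0 over all genes. Slc22a7 differed by 1.00 ± 0.39 (adjusted p = 0.314, limma), with 8 of 9 enarodustat kidneys above the DKD mean and 3 above the highest DKD kidney. Slc6a18 differed by 0.37 ± 0.11 (adjusted p = 0.155, limma), with all 9 enarodustat kidneys above the DKD mean. Its neighbour Slc6a19 differed by -0.40 ± 0.12 (adjusted p = 0.168, limma), with all 9 below it. The citrate carrier Slc13a2 differed by -0.31 ± 0.14 and Dab2 by -0.18 ± 0.08 (adjusted p = 0.414 and 0.384, limma). For 24 of the 36 genes the 95% interval of the difference lay within 0.5 of 0 on the log2 scale. For the other 12 it reached further: that of Slc22a7 ran from 0.20 to 1.80 and that of Slc22a8 from -0.69 to 0.23.

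The comparison of enarodustat with Sham kidneys shares its Sham mice with the first comparison and its enarodustat mice with the second. Here 12 of 36 genes passed, 4 higher and 8 lower, where 15.5% of all genes passed (8.74% higher and 6.75% lower). The cation carriers Slc22a2 (-0.59 ± 0.11) and Slc47a1 (-0.42 ± 0.09) were lower, as were the anion carriers Slc22a6 (-0.67 ± 0.12) and Slc17a3 (-0.68 ± 0.16), with adjusted p between 0.000704 and 0.00484 (limma). All 4 lay wholly below Sham, where 2.03% of all genes did. Slc22a7 (-0.87 ± 0.43, adjusted p = 0.179), Slc22a8 (-0.70 ± 0.25, 0.0578), Slc22a12 (-0.47 ± 0.16, 0.0528) and Slc17a1 (-0.33 ± 0.16, 0.174) did not pass. With slide as a fixed or a random block Slc22a12 passed (adjusted p = 0.0466 and 0.0446, limma).

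Higher in enarodustat than Sham kidneys were Slc6a18 by 0.92 ± 0.13 (adjusted p = 4.28e-05), Slc3a2 by 0.49 ± 0.08 (0.000362), Slc7a8 by 0.61 ± 0.17 (0.0137) and Abcc4 by 0.63 ± 0.18 (0.0194, limma). Of these, Slc6a18 and Slc3a2 lay wholly above Sham at the brighter probe, where 2.91% of all genes did. The dimmer Slc6a18 probe differed by 0.07, with 1.98 to 2.66 in enarodustat kidneys overlapping 1.91 to 2.52 in Sham kidneys. With all probes averaged, Slc6a18 was at 0.49 (adjusted p = 0.0048), Slc3a2 at -0.06 (adjusted p = 0.845) and Slc17a3 at -0.38 (adjusted p = 0.263, limma). Slc6a19 had a difference of 0.03 ± 0.14 and Slc13a2 one of 0.32 ± 0.16, neither past the threshold. The other lower genes were Slc7a13 (-0.53 ± 0.17, adjusted p = 0.038), Slc13a3 (-0.47 ± 0.12, 0.0102), Slc26a1 (-0.40 ± 0.11, 0.018) and Dab2 (-0.27 ± 0.09, 0.0359). Lrp2 (-0.17 ± 0.16), Cubn (-0.08 ± 0.16) and Amn (-0.23 ± 0.09) did not pass.

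All 12 differences kept their sign within each slide, again on the arrays that gave the calls. The split of the calls depended on the scaling. Centring each array on the 20 proximal tubule markers moved the median of all genes to 0.152, against -0.016 with the 75th percentile, and gave 8 higher and 4 lower genes. Background correction by normexp with quantile normalization, and the authors' deposited values, which nearly repeat it, each gave 4 higher and 5 lower. Slc7a13, Slc26a1 and Dab2 did not pass under any of these 3 scalings or quantile normalization of the processed signals, with adjusted p of 0.0618 to 0.128, 0.18 to 0.215 and 0.379 to 0.594, and Slc13a3 did not with the marker centring (0.0694). Place on the slide also followed the group: row 2 held every enarodustat array and 3 DKD arrays, and row 1 held 6 DKD arrays and every Sham array. With row as a term, 5 genes passed, 1 higher (Slc6a18) and 4 lower (Slc22a2, Slc22a6, Slc17a3 and Slc13a3). Slc47a1, Slc3a2, Slc7a8, Slc7a13, Slc26a1, Abcc4 and Dab2 did not, with adjusted p of 0.0896 to 0.634. For DKD against Sham, row as a term left 15 genes.

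The set, like most genes, varied more within DKD than within Sham kidneys. The SD was larger in DKD than in Sham kidneys for 34 of the 36 genes, against 77.5% of all genes. The median SD of the set was 0.31 in DKD kidneys and 0.16 in Sham kidneys. Over all genes it was 0.31 in DKD kidneys and 0.2 in Sham kidneys. Enarodustat kidneys had a larger SD than DKD kidneys for 7 of the 36, against 38.9% of all genes. The median SD in enarodustat kidneys was 0.21 for the set and 0.28 over all genes. DKD 2 had the lowest DKD level for 10 genes and the highest for 5. It was the lowest for Slc22a2, Slc47a1, Slc22a6, Slc22a7, Slc22a12, Slc17a3 and Slc7a13 and the highest for Slc7a7 and Abcc4. Without DKD 2, 14 of the 36 genes passed against Sham, with Slc22a2 at -0.68, Slc22a6 at -0.68, Slc17a3 at -0.81, Slc7a13 at -0.70 and Abcc4 at 0.77, and Slc6a19 and Slc13a3 no longer passed (adjusted p = 0.0787 and 0.0753).

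**Figure D5:**
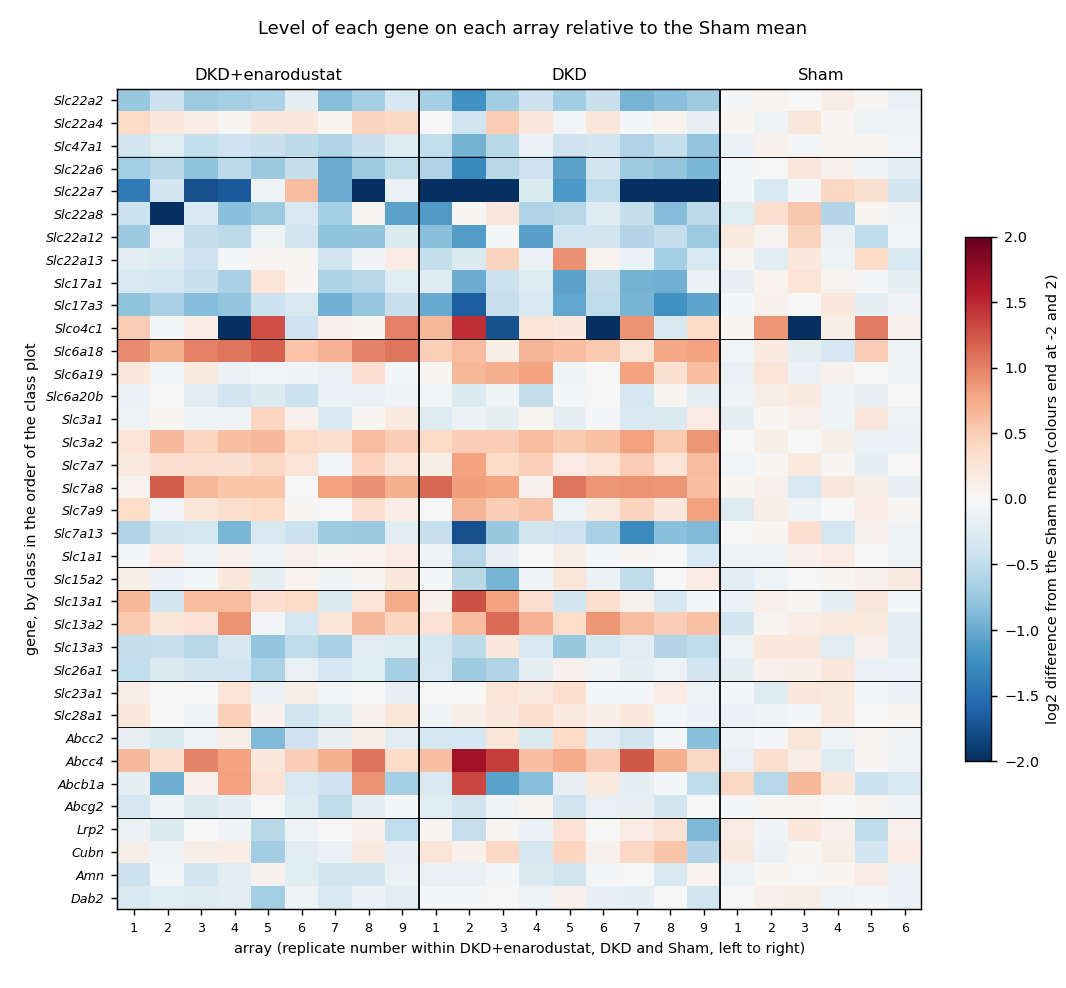
Difference of each gene on each array from the mean of the Sham arrays (log2, colour scale from -2 in blue to 2 in red), with genes in rows by class and arrays in columns as DKD+enarodustat, DKD and Sham from left to right. The rows of Slc22a2, Slc47a1, Slc22a6 and Slc17a3 are blue in all diabetic kidneys, and those of Slc3a2, Slc6a18 and Abcc4 are red in all of them.

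Other genes moved with these differences. Of 13 kidney genes known to be higher in male mice, 9 fell in DKD kidneys against Sham (median difference -1.23). In enarodustat kidneys against Sham 9 fell too (median -0.87). Of all genes 11.6% and 15.5% passed in these 2 comparisons. Srd5a2, a steroid reductase, led the male-biased genes at -2.74 ± 0.40 and -2.16 ± 0.40. All 13 were detected on every array, and their summed level was 870 to 1380 in enarodustat kidneys, 766 to 1410 in DKD kidneys and 1390 to 1760 in Sham kidneys. On DKD 2 the male-biased genes averaged -1.95 from the Sham mean and the organic cation carriers -0.85, the lowest DKD values of both. The organic anion carriers averaged -0.92 on DKD 2 and were lowest on DKD 8 (-0.93), where the male-biased genes averaged -1.29. The anion average includes the dim Slco4c1 probe, at -1.52 on DKD 2, -3.30 on DKD 8 and -5.08 on DKD 6, with a Sham mean of -2.98. The order of DKD arrays in the anion list depends on that probe. DKD 4 had the highest DKD values of all 3 lists (-0.41, -0.12 and -0.35), for the anion carriers with Slco4c1 counted. In enarodustat kidneys the male-biased genes were lowest on array 3 (-1.31) and the cation carriers on array 7 (-0.47). The anion carriers were lowest on array 4 (-0.97), where the dim Slco4c1 probe was at -5.70. The place of array 4 in the anion list thus rests on that probe and is no sign that the cation and anion lists differed. Of 10 markers of injured tubules, 3 rose in DKD kidneys (Cdkn1a at 1.52, Spp1 at 1.15 and Krt18 at 0.85), and DKD 2 had the highest mean. The summed level of the 10 was 103 to 143 in enarodustat kidneys, 86.8 to 182 in DKD kidneys and 67.2 to 99.4 in Sham kidneys, with 9 of them detected on all arrays. Slco1a1 of the male-biased list is also counted among the other organic ion carriers below, and Acsm3 and Cyp7b1 among the straight segment markers. The part of the male-biased and injury genes in the carrier differences was not tested.

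Transcription factors and scaffolds of the proximal tubule, 15 in all, had 2 higher and 1 lower in DKD than Sham kidneys (20%, beside 11.6% of all genes). Hnf4a, a nuclear receptor that drives many proximal tubule genes, fell by 0.26 ± 0.07 in DKD (adjusted p = 0.0204) and by 0.43 ± 0.07 in enarodustat against Sham kidneys (adjusted p = 0.000325, limma). Nr1i2, the xenobiotic receptor, rose by 0.97 ± 0.22 and 0.78 ± 0.22, and the scaffold Pdzk1, which anchors luminal carriers, differed from Sham by -0.35 ± 0.10 in enarodustat kidneys (adjusted p = 0.0188, limma). 0 of the 15 passed between enarodustat and DKD kidneys, with 3 at an unadjusted p under 0.05. Of all genes 0.716% passed there and 10.9% had such an unadjusted p.

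Related carriers outside the set were counted from lists of the same families, beside 11.6% of all genes past the threshold in DKD against Sham kidneys and 15.5% in enarodustat against Sham kidneys. Of 25 other organic ion carriers tested, 1 rose and 5 fell in DKD kidneys (median -0.26), among them the organic anion transporters Slco1a1 at -1.61 ± 0.38 and Slc22a28 at -1.06 ± 0.20. Of 24 other amino acid and peptide carriers, 6 rose and none fell (median 0.24), led by Slc6a12, the betaine carrier, at 1.61 ± 0.26, and with Slc38a3, a basolateral glutamine carrier, at 0.59 ± 0.17. Of 21 other dicarboxylate, monocarboxylate, sulfate, vitamin and nucleoside carriers, 4 rose and none fell (median -0.01), among them the luminal anion exchanger Slc26a6 at 1.01 ± 0.16 and the lactate carrier Slc5a12 at 0.55 ± 0.13. None of 7 other ABC pumps passed (0 with limma, though 4 had an unadjusted p under 0.05, as 24.8% of all genes did). Of 28 other endocytosis genes, 2 fell (Lrpap1, the chaperone of megalin, at -0.47 ± 0.14, and Clcn3 at -0.33 ± 0.08) and none rose (median -0.07), a share of 7.14%, below that of all genes. In enarodustat against Sham kidneys, these 5 lists in the same order had 2 higher and 4 lower, 6 and 0, 2 and 1, 2 and 0, and 0 and 3, the last a share of 10.7%. Between enarodustat and DKD kidneys none of their genes passed (0 with limma, while 1, 3, 4, 1 and 1 had an unadjusted p under 0.05). Of all genes 0.716% passed there and 10.9% had such a p.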

How the data were processed

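Each scanner file holds the spots of 1 array, whose processed signals are intensity values that Agilent software (Feature Extraction, 12.1.1.1) background-subtracted, per the file headers. Version 11.5.1.1 and limma stand in the submitters' processing notes. Flags for spots well above background or outlying are per the file headers too. The authors' deposited table holds log2 values of 31409 probes, and its scale was found by comparison: normexp with an offset of 50 on the median signals and quantile normalization gave 753186 of 753816 deposited values within 0.05. Control spots and outlier-flagged spots were dropped, spots of 1 probe averaged, and probes named by accession through RefSeq (GRCm38.p6). The brightest probe stood for its gene, and the 17736 genes detected above background on 6 or more of 24 arrays were tested. One limma fit (3.58.1, R 4.3.3) with group as the only term gave the 3 comparisons; two-sided p-values were adjusted by Benjamini-Hochberg. Each mouse is taken as a replicate, since the series describes groups by numbers of mice. The genes, lists and tests were chosen with earlier results of these data known. Levels per array are printed for genes that passed with a difference of at least 0.5 and for Lrp2, Cubn, Slc22a6, Slc22a8, Slc22a2 and Slc7a13. Of the other lists, up to 4 passing genes with the largest difference could be named. The number of arrays limits the precision.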

Additional observations from a re-analysis of the deposited data

Results flagged for a closer look

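Of 108 groups of values (36 genes in 3 groups), 4 had an array far from its group by Dixon's test, where chance flags about 5%. Slco4c1, a dim probe, was at -5.70 on DKD+enarodustat 4, with the next array at -3.40, and at -5.14 on Sham 3, with the next at -2.96. On DKD+enarodustat 5, Cubn was at 4.66 (next array 5.12) and Dab2 at 3.36 (next array 3.74). That kidney also had the lowest Lrp2 level of its group, 5.98. Dab2 still passed in enarodustat against Sham kidneys with DKD+enarodustat 5 left out.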

How the results depend on the processing

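Each result was recomputed under 38 alternatives, of which 24 leave out each array in turn. A further alternative leaves out the array with a scanner quality warning. That array is DKD+enarodustat 3, so this alternative repeats the result without it. Normexp on the mean spot signals was not run, since the scanner files hold median signals only. In DKD against Sham kidneys 9 of the 16 calls passed in every alternative run (Slc22a2, Slc47a1, Slc22a6, Slc22a7, Slc7a7, Slc7a8, Slc7a13, Slc13a2 and Abcc4). The cause of the changes below was not tested. Leaving out 1 array gave 13 to 16 genes of the set past the threshold in DKD against Sham, 0 in enarodustat against DKD and 10 to 14 in enarodustat against Sham. Over all genes it gave 1471 to 2260, 71 to 128 (71 without DKD+enarodustat 8, and 82 to 84 without DKD 7 or DKD+enarodustat 4, 5 or 6) and 1967 to 3040. The 127 genes past the threshold in enarodustat against DKD became 411 with arrays centred on proximal tubule markers, 83 with no filter on detection, 20 with slide row as a term, 47 with only the 2 groups compared and 66 with a replicate block. With slide row as a term, enarodustat against Sham gave 889 genes and 5 of the set. With the mean over all probes, Slc3a2 reversed to -0.06 in enarodustat against Sham (adjusted p = 0.845). In enarodustat against Sham, 3 calls passed in every alternative (Slc22a2, Slc22a6 and Slc6a18). Dab2 was lost without Sham 1, 2, 3 or 5 or DKD+enarodustat 1, 3 or 7 (adjusted p from 0.0513 to 0.0906), and Slc7a13 without Sham 1, 2, 3 or 5 or DKD+enarodustat 1, 4, 7 or 8 (adjusted p from 0.0586 to 0.1). With 1 array left out, Slc6a19 passed in DKD against Sham only without Sham 2, DKD 1, 5 or 6 or DKD+enarodustat 1, 5, 7 or 8, and Slc13a3 only without Sham 4 or 6, DKD 3 or 4 or DKD+enarodustat 5, 7, 8 or 9. In enarodustat against Sham 9 genes gained a call in some alternative. With 1 array left out these were Slc22a8 (without Sham 4 or DKD+enarodustat 8), Slc22a12 (without Sham 5, DKD 2, 3 or 4 or DKD+enarodustat 2, 5 or 9), Slc7a7 (without DKD 2 or DKD+enarodustat 7) and Amn (without DKD+enarodustat 5), with adjusted p of 0.0245 to 0.0468. With marker centring they were Slc22a4, Slc7a7, Slc7a9 and Slc13a2 (0.00739, 0.0016, 0.0283 and 0.0268), with quantile normalization Abcg2 (0.0462) and with probes averaged Slc6a20b (0.0198). Slc22a12 also passed with slide as a block, detection on all arrays, only the 2 groups compared, or trend and robust eBayes, Slc7a7 with only the 2 groups and Slc22a8 with trend and robust eBayes (0.035 to 0.0493). In DKD against Sham 2 genes gained a call, Slc6a20b with probes averaged (0.0248) and Slc7a9 in 9 alternatives: without DKD 1 or DKD 5 (0.0296 and 0.0206), in 4 other scalings (0.0057 to 0.0142), and near the threshold with detection on all arrays, slide as a random block or trend and robust eBayes. Replicate numbers were not taken to pair the mice. Deviations of same-numbered arrays of different groups correlated at a median of 0.0969, over 0.1 in 10 of 21 pairs. Those of other-numbered arrays correlated at a median of -0.0241, over 0.1 in 49 of 168 pairs. These values do not settle whether the numbers pair mice. With the replicate block 12, 0 and 9 genes of the set passed in the 3 comparisons, and the calls lost were Slc22a12, Slc17a1, Slc6a19 and Slc13a3 in DKD against Sham (adjusted p = 0.0543, 0.0567, 0.126 and 0.091) and Slc7a8, Slc7a13 and Dab2 in enarodustat against Sham (adjusted p = 0.0518, 0.0949 and 0.0959). Arrays of different groups on 1 slide correlated at a median of 0.189 (over 0.1 in 47 of 63 pairs), against -0.0933 on other slides. With slide as a fixed block 16, 0 and 13 genes of the set passed.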

Other observations

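Members that neighbour each other on a chromosome did not all move alike. On chromosome 19, with 1 protein-coding gene between them, Slc22a6 fell in DKD kidneys (-0.75) and Slc3a2 rose at its brighter probe (0.59). Slc17a1 and Slc17a3 both fell (-0.61 and -0.91). Slc6a18 and Slc6a19 both rose against Sham (0.55 and 0.43), and in enarodustat minus DKD they differed by 0.37 and -0.40, both short of the threshold.

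Cell type markers were counted beside the set. In DKD against Sham kidneys, where 11.6% of all genes passed, 5 of 7 principal cell markers rose (Aqp2 at 0.91 ± 0.14), 2 of 5 distal convoluted tubule markers rose, 3 of 6 thick ascending limb markers rose and 2 fell, 2 of 5 female-biased genes rose, and 3 of 8 lymphocyte markers fell. 1 of 7 macrophage markers fell (14.3%), close to the share of all genes. Of the podocyte, endothelial, fibroblast and intercalated cell markers 0 passed by limma there, with 4, 2, 1 and 2 at an unadjusted p under 0.05. Of all genes 24.8% had such a p there. Between enarodustat and DKD kidneys, where 0.716% of all genes passed, 4 of 7 endothelial markers rose (Cdh5 at 0.43 ± 0.08, adjusted p = 0.0103), and 0 of each other marker list passed.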
